A study of Mus musculus with 87 samples.

Results

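The 8 transcripts described here, Ptgds, Abca8a, A330015K06Rik, 9330111N05Rik, RP24-163K4.1, Gm42756, Il33 and Apod, are 8 of the 48526 genes in the table of sorted nuclei. They were chosen by name as oligodendrocyte transcripts with large falls, lasting falls or other changes after IFN-γ, so their measured difference between IFN-γ and saline in NeuN- nuclei and in oligodendrocyte nuclei is what put them on the list, and in both places that difference is given as a description, with counts of the calls of the fit in NeuN- wells but no p for a member. Adult wild-type C57BL/6J mice, 6 to 12 months old, received 40 ng of IFN-γ in 400 nL, or saline, into the ventral midbrain. Nuclei were sorted by the neuronal protein NeuN into 84 wells at 6, 24, 48 and 72 h, with 6 IFN-γ wells at each time and fraction, 6 saline wells at 24 h and 4 saline wells at each other time, and 3 further libraries of single nuclei were made at 48 h from 1 saline and 2 IFN-γ injections. The labels of the wells name NeuN+ nuclei throughout, so the fraction of each well was taken from the sample sheet of the study. Mice of both sexes were used, a few mice contributed the wells of a group, and wells cannot be traced to single mice, so p-values measure the spread between wells, which may be technical.

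Oligodendrocytes wrap axons in myelin, a stack of membrane rich in lipid, and their nuclei lack NeuN and so collect in the NeuN- fraction. Ptgds encodes the lipocalin-type prostaglandin D synthase and Apod encodes apolipoprotein D, both small secreted carriers of lipids. Abca8a belongs to the A family of ATP-binding cassette transporters, many of which move lipids, and Il33 encodes interleukin-33, an alarmin stored in the nucleus and sensed through the receptor encoded by Il1rl1. The other 4 members are long non-coding RNAs. Promoters of genes induced by IFN-γ often hold sites called GAS and ISRE, and the product of Irf1, itself induced by IFN-γ, binds ISRE.

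The fractions behaved as sorted. NeuN- wells held 382 to 2006 CPM (UMI counts scaled to the same total in every well) of the myelin gene Mbp, against 32.6 to 153 CPM in NeuN+ wells, and the neuronal gene Rbfox3 was at 0 to 130 CPM in NeuN- wells and at 93.8 to 206 CPM in NeuN+ wells. The upper end in NeuN- was 1 saline well at 24 h, and the next NeuN- well held 24.2 CPM of Rbfox3. NeuN- wells held 20962 to 301445 UMIs and NeuN+ wells 277113 to 1684374, so a low level is measured less precisely in NeuN- wells. Sex-linked genes differed between groups compared. At 6 h the Y-linked genes Ddx3y, Eif2s3y, Kdm5d and Uty summed to 286 to 363 CPM in the saline NeuN- wells and to 0 to 95.4 CPM in the IFN-γ NeuN- wells. At 24 h Xist, which is transcribed from the inactive X chromosome, ran from 123 to 3618 CPM in the saline NeuN- wells and from 96.6 to 261 CPM in the IFN-γ NeuN- wells. In IFN-γ NeuN- wells Xist was at 3222 to 5104 CPM at 6 h, 4140 to 6834 CPM at 48 h and 50.1 to 281 CPM at 72 h. A course over time in NeuN- wells thus compares different mice, and time and their sex cannot be told apart.

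On GRCm38 with GENCODE vM21, 4 members are protein coding: Ptgds on the minus strand at chr2:25466709-25470046, Abca8a on the minus strand at chr11:110025634-110095978, Il33 on the plus strand at chr19:29925114-29960718 and Apod on the minus strand at chr16:31296192-31314808. A330015K06Rik lies at chr3:65133060-65302685 on the minus strand, 9330111N05Rik at chr13:80962888-81128864 on the plus strand and Gm42756 at chr9:109537100-109552780 on the plus strand. These 3 are annotated as antisense and overlap Kcnab1, Adgrv1 and Fbxw15. RP24-163K4.1, named C030029H02Rik in that annotation, is an intergenic RNA at chr7:136268324-136318513 on the plus strand. Whether reads were counted by strand is not given in the sources used here, so reads of an antisense member and of its partner cannot be told apart with certainty. Of the 39 annotated genes that overlap a member or lie within 50 kb of one, 28 were in the table, and 3 of them, Abca2, Abca8b and Kcnab1, had enough counts to be tested in NeuN- wells at 1 time or more. None of the 3 was called by edgeR, with 1 lower at an unadjusted p under 0.05 at 6 h and 1 at 48 h, and DESeq2, whose result was read for Abca2 and Abca8b, called both lower at 24 h.

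RefSeq windows before the start of 7 of the 8 genes were at hand (GRCm38.p6). Because the members moved in a few shared time courses, 4 windows of 250 bases are shown, from members with different courses and from the member with a GAS match, 5′ to 3′ on the strand of the gene, with matches to the searched motifs in capitals: Ptgds at chr2:25469750-25469999, A330015K06Rik at chr3:65302686-65302935, RP24-163K4.1 at chr7:136268074-136268323 and the second Il33 start at chr19:29945540-29945789.
Ptgds: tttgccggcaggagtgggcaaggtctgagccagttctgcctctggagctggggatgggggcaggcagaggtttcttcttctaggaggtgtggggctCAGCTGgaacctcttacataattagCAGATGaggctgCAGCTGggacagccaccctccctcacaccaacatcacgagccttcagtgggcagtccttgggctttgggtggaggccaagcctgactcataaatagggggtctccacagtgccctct
A330015K06Rik: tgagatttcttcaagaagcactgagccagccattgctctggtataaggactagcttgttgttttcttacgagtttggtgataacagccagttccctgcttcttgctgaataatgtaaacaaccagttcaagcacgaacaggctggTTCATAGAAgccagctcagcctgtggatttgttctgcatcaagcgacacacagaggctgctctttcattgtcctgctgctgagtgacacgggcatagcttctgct
RP24-163K4.1: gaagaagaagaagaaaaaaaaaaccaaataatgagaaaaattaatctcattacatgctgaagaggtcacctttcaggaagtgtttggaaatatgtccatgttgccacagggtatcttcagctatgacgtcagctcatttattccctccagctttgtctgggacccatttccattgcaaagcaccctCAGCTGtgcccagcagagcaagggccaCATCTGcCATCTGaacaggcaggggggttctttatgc
Il33: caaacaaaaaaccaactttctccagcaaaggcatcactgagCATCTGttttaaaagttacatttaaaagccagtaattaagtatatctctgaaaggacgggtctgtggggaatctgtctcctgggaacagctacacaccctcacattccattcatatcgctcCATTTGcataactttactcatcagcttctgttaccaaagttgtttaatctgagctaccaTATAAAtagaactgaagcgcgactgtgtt
The motifs were searched on both strands. GAS (TTCNNNGAA) matched only in the window of A330015K06Rik, against 7.02% of all 32851 windows, and ISRE matched in none of the members' windows, against 2.98% of all windows. The SOX core (AACAAT) also matched in none, against 9.42%. The E-box (CANNTG) matched 3 times each in Ptgds, Abca8a and RP24-163K4.1, 2 times in the second Il33 window and once in Apod, and it is found in 66.2% of all windows. TATAAA matched in both Il33 windows, against 12.4% of all windows, and no motif overlapped another. A match is a run of letters and not a measured binding site.

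In NeuN- wells, 6 of the 8 transcripts were lower after IFN-γ, 3 of them at 48 h as well as earlier and 3 at the early times, while Il33 and Apod were first higher. Calls here mean an edgeR log2 fold change beyond 1 with an adjusted p under 0.01. Members called lower numbered 5 of 8 at 6 h (3.87% of all 2660 genes tested were called lower), 6 at 24 h (7.38% of 1883), 3 at 48 h (0.17% of 2352) and 1 at 72 h (0.377% of 2916). All 8 passed the filter on low counts at every time. Il33 at 6 h was the only member called higher (7.86% of genes tested). The median log2 fold change of the members was -1.10 at 6 h, -2.56 at 24 h, -0.24 at 48 h and -0.33 at 72 h, and that of all genes tested lay between -0.01 and 0.01. Since these values chose the members, nothing is read from the counts. Whether wells overlapped is given for the members only, in both fractions, without the share of all genes whose wells were apart. Nothing is read from that either. In wells of pooled nuclei, fewer nuclei of a type and less RNA per nucleus cannot be told apart.

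**Figure D1:**
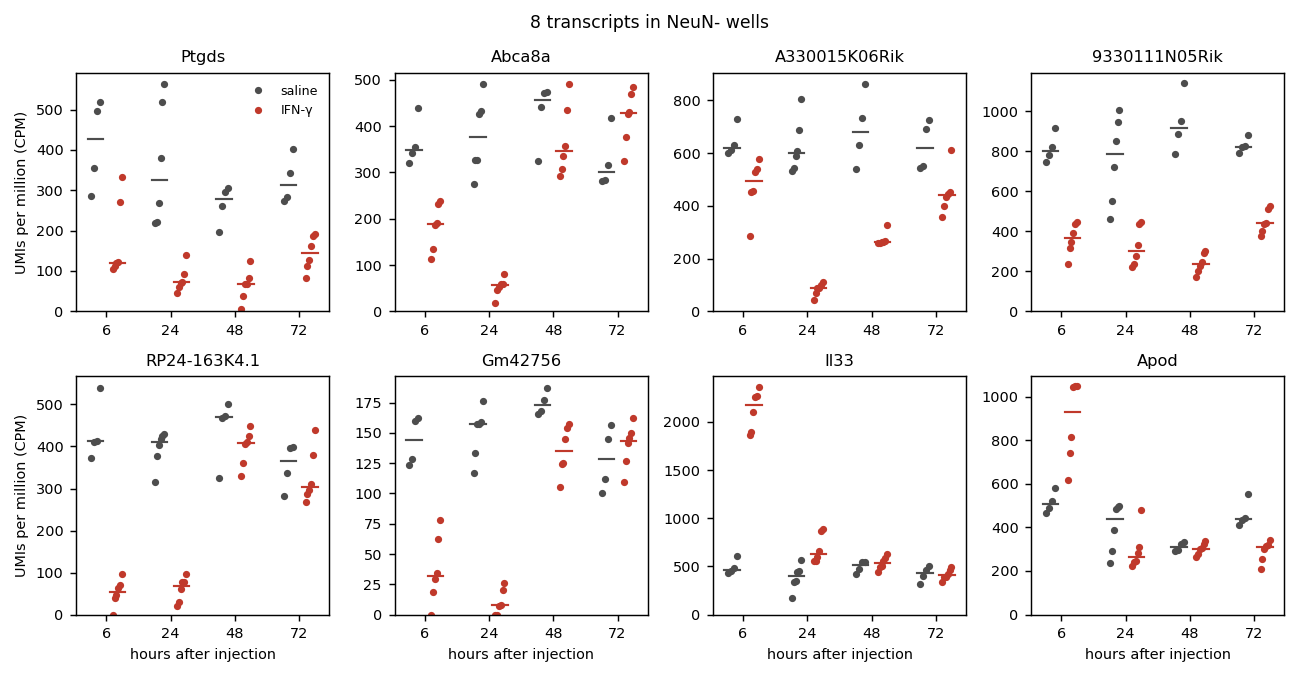
Level of each transcript in every NeuN- well, in CPM (vertical axis, starting at 0) by hours after injection, with saline wells in grey, IFN-γ wells in red and a line at each group's median. The 9330111N05Rik IFN-γ wells lie under all saline wells at each of the 4 times, and the Il33 IFN-γ wells at 6 h lie at 1861 to 2364 CPM against at most 609 CPM in saline.

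Ptgds was lower at all 4 times. At 6 h its saline wells held 286, 355, 497 and 519.8 CPM, and the IFN-γ wells ran from 106 to 334 CPM with a median of 121. Of the 6 IFN-γ wells, 5 were below every saline well, and the highest was the shallowest well, with 7 UMIs of Ptgds among 20962. The log2 fold change was -1.53 ± 0.22 (SE, 6 against 4 wells). At 24 h the saline wells held 218 to 562 CPM (median 324) and the IFN-γ wells 46.4 to 141 CPM (median 71.6), with no overlap and a log2 fold change of -2.49 ± 0.27 (6 against 6 wells). At 48 h saline wells were at 197, 262, 295 and 305 CPM and IFN-γ wells at 7.01 to 125 CPM (median 67.9). All IFN-γ wells were again below, and the log2 fold change was -1.99 ± 0.29. At 72 h the saline wells held 272, 284, 342 and 403 CPM and the IFN-γ wells 81.6 to 192 CPM (median 145), without overlap, with a log2 fold change of -1.21 ± 0.19. Ptgds was the only member still called lower at that time.

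Apod, the other lipid carrier of the set, went up before it went down. At 6 h its saline wells held 468, 489.8, 522 and 582 CPM and its IFN-γ wells 620.2 to 1052 CPM (median 930.2), so every IFN-γ well was higher, with a log2 fold change of 0.76 ± 0.13. At 24 h the groups overlapped, with 237 to 498 CPM (median 438) in saline and 222 to 482 CPM (median 264) in IFN-γ wells, and at 48 h they overlapped at 290.4 to 334 against 266 to 338 CPM. At 72 h saline wells were at 409, 436, 446 and 554 CPM and all IFN-γ wells were below them, at 209.8 to 344 CPM (median 308). The log2 fold change at 72 h was -0.67 ± 0.15. Apod passed the limits of a call at no time, so its place among transcripts with large falls is not borne out by these fold changes.

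Abca8a was lower at 6 and 24 h, and its wells overlapped those of saline at 48 and 72 h. At 6 h saline wells held 319.9, 343, 355 and 439 CPM and IFN-γ wells 113 to 238 CPM (median 189). The groups did not overlap, but the log2 fold change of -1.002 ± 0.18 sat at the limit of a call and fell short of it in 6 of the alternative fits. At 24 h the IFN-γ wells held 17.4 to 80.4 CPM (median 56.0) against 276 to 491 CPM (median 376) in saline wells, with a log2 fold change of -2.98 ± 0.22. At 48 h the groups overlapped, with 293 to 490.2 CPM after IFN-γ and 324 to 475 CPM after saline, and the log2 fold change was -0.15 ± 0.15. At 72 h the IFN-γ wells held 324 to 483 CPM (median 428) and the saline wells 281, 283, 317 and 417 CPM, so 4 of the 6 IFN-γ wells were above every saline well, with a log2 fold change of 0.34 ± 0.15.

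Il33 was called lower at no time. At 6 h saline wells held 429.8, 449, 479.6 and 609 CPM and IFN-γ wells 1861 to 2364 CPM (median 2181), all of them higher, with a log2 fold change of 2.06 ± 0.12. At 24 h the IFN-γ wells were at 554 to 884 CPM (median 628) and the saline wells at 173 to 569 CPM (median 396). Of the IFN-γ wells at 24 h, 4 were above every saline well, and the log2 fold change was 0.64 ± 0.18. The groups overlapped at 48 h (0.14 ± 0.13) and at 72 h (-0.03 ± 0.14). The data thus go against the label of a falling transcript for Il33.

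The non-coding RNAs A330015K06Rik and 9330111N05Rik stayed low for longer than RP24-163K4.1 and Gm42756. At 24 h A330015K06Rik was at 44.2 to 113 CPM (median 88.1) in IFN-γ wells and at 534 to 805 CPM (median 599) in saline wells. At 48 h its saline wells held 541, 632, 731 and 862 CPM and its IFN-γ wells 259 to 328 CPM (median 262). The groups were apart at 6, 24 and 48 h, and at 72 h 5 of the 6 IFN-γ wells were below every saline well. The log2 fold changes of A330015K06Rik were -0.40 ± 0.12 at 6 h, -2.91 ± 0.17 at 24 h, -1.31 ± 0.14 at 48 h and -0.52 ± 0.13 at 72 h.

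9330111N05Rik was the only member whose IFN-γ wells all lay under all saline wells at each of the 4 times. At 6 h its saline wells held 745, 779.7, 822 and 914 CPM and its IFN-γ wells 239 to 444 CPM (median 368). At 48 h the saline wells held 787, 885, 949 and 1140.4 CPM and the IFN-γ wells 172 to 304 CPM (median 236). Its log2 fold changes were -1.19 ± 0.12, -1.22 ± 0.17, -1.92 ± 0.14 and -0.92 ± 0.12 at 6, 24, 48 and 72 h. The lowest of these was at 48 h, when the wells of Abca8a and RP24-163K4.1 overlapped those of saline. The mice and their sex-linked genes differ between times, and their part in the course was not tested. At 72 h the IFN-γ wells held 375 to 524 CPM (median 439) and the saline wells 789.7, 818, 827 and 879 CPM.

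RP24-163K4.1 had log2 fold changes of -2.94 ± 0.22 at 6 h and -2.63 ± 0.19 at 24 h. At 6 h its saline wells held 372, 411, 413 and 539.8 CPM, and its IFN-γ wells held 0 to 96.5 CPM (median 54.3). The well at 0 was the shallowest, where a count of 0 allows up to 143 CPM, and the log2 fold change without that well was -2.91 ± 0.22. At 24 h the levels were 20.1 to 95.7 CPM (median 68.2) after IFN-γ and 315 to 430.1 CPM (median 412) after saline, with no overlap at either time. At 48 h (-0.13 ± 0.14) and 72 h (-0.13 ± 0.16) the groups overlapped.

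Gm42756 was also lower at 6 and 24 h, most at 24 h, and was counted in fewer UMIs. At 6 h its saline wells held 123, 128, 159.9 and 162 CPM and its IFN-γ wells 0 to 78.4 CPM (median 31.5), with a log2 fold change of -1.73 ± 0.32. At 24 h the saline wells held 117 to 176 CPM (median 158) and the IFN-γ wells 0 to 26.1 CPM (median 7.55), with no more than 6 UMIs in any IFN-γ well and a log2 fold change of -3.58 ± 0.33. At 48 h the IFN-γ wells, at 105 to 158 CPM, were still just under the saline wells at 166, 168, 177 and 187 CPM, with a log2 fold change of -0.32 ± 0.21, and at 72 h the groups overlapped (0.11 ± 0.22).

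**Figure D2:**
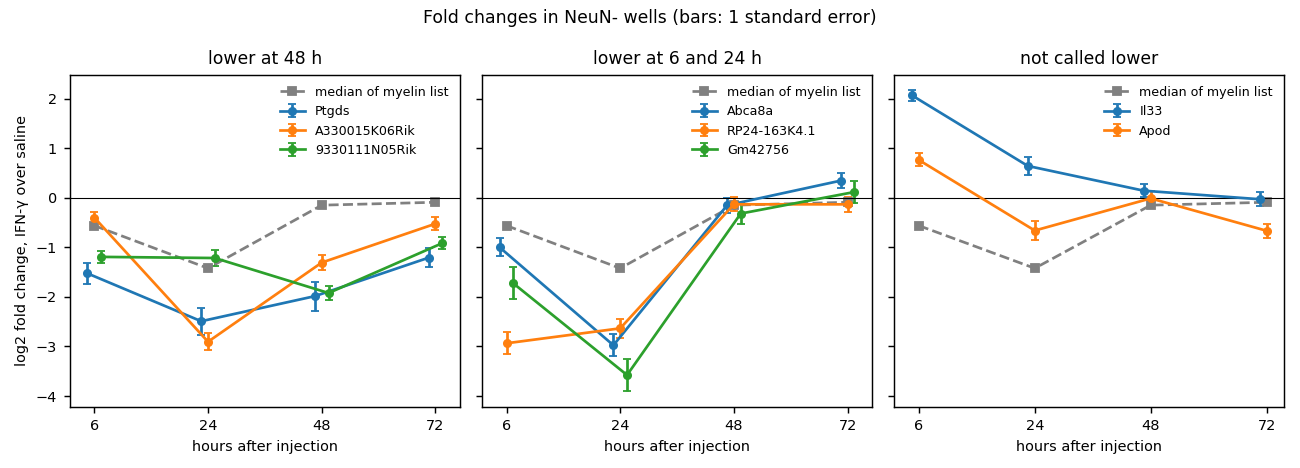
Log2 fold change of IFN-γ over saline NeuN- wells (vertical axis) with 1 SE against hours after injection, in 3 panels for transcripts called lower at 48 h, transcripts called lower at 6 and 24 h only, and transcripts never called lower, with the median of the myelin list as a dashed grey line. Ptgds, A330015K06Rik and 9330111N05Rik are at -1.31 to -1.99 at 48 h, where Abca8a, RP24-163K4.1 and Gm42756 are at -0.13 to -0.32 and Il33 and Apod are near 0.

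At 24 h, 2 of the 6 saline NeuN- wells had a low Xist level like the IFN-γ wells. Against these 2 wells the log2 fold changes were -2.31 for Ptgds, -3.18 for Abca8a, -2.92 for A330015K06Rik, -1.37 for 9330111N05Rik, -2.67 for RP24-163K4.1 and -3.53 for Gm42756, with Il33 at 0.42 and Apod at -0.97. The 2 saline wells, at 123 and 132 CPM of Xist, may come from 1 mouse. These fold changes are a description of the same values that chose the members. At 6 h no saline well matched the IFN-γ wells in its Y-linked genes, so treatment and the sex of the mice cannot be told apart there.

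Marker genes of oligodendrocytes and of other cells also differed in NeuN- wells. The summed level of 8 markers of oligodendrocytes, among them Mal, Mag, Mog, Mbp, Mobp, Cldn11 and Opalin, was 4293 to 5253 CPM after IFN-γ and 7322 to 8461 CPM after saline at 6 h, and 2531 to 3195 against 7444 to 9119 CPM at 24 h. At 48 h it was 6892 to 8133 against 8346 to 9267 CPM, and at 72 h 7709 to 8730 against 8411 to 9055 CPM. Of the 8 markers, 4 were called lower at 6 h, 7 at 24 h and none at 48 or 72 h by edgeR or DESeq2 (4 and 3 at an unadjusted edgeR p under 0.05), and none of them was at 0 over the fraction. Astrocyte markers summed to 1011 to 1406 CPM after IFN-γ and 388 to 795 CPM after saline at 24 h, and to 627 to 777 against 342 to 598 CPM at 48 h, and overlapped at 6 and 72 h. Microglia markers summed to 0 to 125 CPM after IFN-γ and 219.6 to 319.9 CPM after saline at 6 h, and to 145 to 262 against 287 to 472 CPM at 48 h, and overlapped at 24 and 72 h. Leptomeningeal markers, of interest because cells of the meninges also transcribe Ptgds, reached at most 124 CPM in any NeuN- well and overlapped at all 4 times. The part of the marker levels in the members' differences was not tested, but the members' UMIs per 1000 oligodendrocyte marker UMIs can be set beside them.

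Relative to the oligodendrocyte markers, the IFN-γ wells of Ptgds and 9330111N05Rik were below the saline wells at the late times, and those of RP24-163K4.1 at the early times. The log2 ratio of the median Ptgds level per 1000 marker UMIs, IFN-γ over saline, was -1.07 at 6 h and -0.73 at 24 h with overlapping wells, and -1.77 at 48 h and -0.95 at 72 h with every IFN-γ well below. For 9330111N05Rik it was -0.46 and 0.31 with overlap at 6 and 24 h, and -1.76 and -0.80 without overlap at 48 and 72 h. A330015K06Rik was below without overlap at 24 h (-1.27) and 48 h (-1.19), RP24-163K4.1 at 6 h (-2.24) and 24 h (-0.98), and Gm42756 at 24 h (-2.70). Abca8a overlapped at all 4 times, with its largest difference, -1.36, at 24 h. Il33 was above without overlap at 6 h (2.89) and 24 h (2.30), and Apod was above at 6 h (1.55) and 24 h (0.82) and below at 72 h (-0.52). At 24 h the Apod level itself had a log2 fold change of -0.66. The summed markers then had medians of 2821 CPM after IFN-γ and 8346 CPM after saline, so each ratio also moves with the markers. These ratios were added after the data were seen and are a description.

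Lists of genes that are not members show how the rest of each pathway moved in NeuN- wells. Of 25 genes of myelin, 16 were tested at 6 h with 5 lower, 14 at 24 h with 12 lower, and 17 and 16 at 48 and 72 h with none lower by edgeR or DESeq2 (6 and 4 at an unadjusted p under 0.05), and their median log2 fold changes were -0.56, -1.42, -0.15 and -0.09. None of them was called higher. Mal, a proteolipid of myelin, fell the most at 24 h, from 182 to 278 CPM in saline wells to 14.7 to 80.4 CPM (log2 fold change -2.46 ± 0.26, edgeR adjusted p = 5.54e-09). Mog, a protein of the outer myelin surface, and Anln, a scaffold protein of myelin, also fell at 24 h, with log2 fold changes of -2.21 and -1.93. At 48 h, when Ptgds stood at -1.99, Mal stood at -0.86 ± 0.22 (edgeR adjusted p = 0.00913). It missed a call there on the size of its change alone. At 72 h Mal stood at -0.94 ± 0.21 (edgeR adjusted p = 0.00314), again not called. Of 14 genes of late oligodendrocytes, 7 were tested at 6 h and 2 of them fell, Qdpr (-1.35) and Grm3 (-1.19). At 24 h 5 were tested and 1 fell, Grm3 (-1.25). DESeq2, which fitted 13 of them, called 2 lower at 6 h and 4 at 24 h, and neither method called any at 48 or 72 h. Of 14 genes of precursors and early oligodendrocytes, 9 were tested at 6 h and 1 rose, Tcf7l2 (1.28), a factor of oligodendrocyte differentiation, with a list median of 0.08.

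Few pathway partners of the members had enough counts to be tested. Of 23 other prostaglandin genes, 2 were tested at 6 h, and Ptges3, a co-chaperone also known as a prostaglandin E synthase, rose (log2 fold change 1.41 ± 0.27, edgeR adjusted p = 7.28e-05), while DESeq2, which fitted 17 of them, called 2 higher and 1 lower. Of 10 other genes of interleukin-33 signalling, 3 were tested at 6 h, and the adaptor Traf6 rose (1.17 ± 0.35, edgeR adjusted p = 0.00781), a call that DESeq2 did not make. None of 6 other lipocalin genes had enough counts. Of 15 other genes of the A family of transporters, 3 were tested at 6, 48 and 72 h and 1 at 24 h, and none was called by edgeR, with medians of -0.41, -0.56, -0.58 and -0.34 over the 4 times. At an unadjusted p under 0.05, edgeR had 1, 1, 2 and 0 of them lower, and DESeq2, which fitted 13 or 14 of them, called 1 lower at 6 h, 3 at 24 h and none later. Abca8b, the neighbour of Abca8a, stood at -0.95 at 6 h, when Abca8a stood at -1.002. All 6 genes of the IFN-γ response list rose at 6 h, with Irf1 at 6.88 and Gbp2 at 6.81 on the log2 scale.

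The members' mean course over the 8 groups of NeuN- wells was most like that of Cdc42bpa (Pearson r = 0.99 over 8 group means), followed by Elmo1, Plcl1 and Dock3 (each 0.98) and Tbc1d5 (0.97), among 3711 genes with a mean of at least 50 CPM. A330015K06Rik followed the mean course most closely (0.99) and Il33 least (-0.23). The differences in log2 level of these 5 genes, IFN-γ less saline, were lowest at 24 h, from -0.83 to -1.44. The points share wells with the choice of members, so these correlations are a description.

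In saline wells, where IFN-γ plays no part, all 8 members were higher in NeuN- than in NeuN+ wells (17.9% of 5699 genes tested were called higher in NeuN-). The members were chosen as oligodendrocyte transcripts, so a higher level in NeuN- wells follows from the choice and is given as a description. The log2 difference, from an edgeR fit with time as a term over 18 wells of each fraction, ran from 3.85 ± 0.09 for A330015K06Rik to 4.75 ± 0.10 for RP24-163K4.1. Ptgds stood at 4.15 ± 0.15, Apod at 4.09 ± 0.12, Abca8a at 4.71 ± 0.11, Il33 at 4.39 ± 0.12, 9330111N05Rik at 4.17 ± 0.08 and Gm42756 at 4.67 ± 0.16. The 8 oligodendrocyte markers spanned 4.21 to 4.81, and the median of all genes tested was -0.04. Of the members, 4 lay within the span of the markers, and A330015K06Rik, Ptgds, 9330111N05Rik and Apod lay below the lowest marker.

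NeuN+ wells were not used to choose the members. There 5, 7, 6 and 8 members passed the filter at 6, 24, 48 and 72 h, and 6 of these 26 pairs of member and time were called in either direction, 3 of them for Il33. Over all genes the share called was 1.37% of 9033 at 6 h, 1.73% of 9416 at 24 h, 0.169% of 10033 at 48 h and 0.766% of 9405 at 72 h. The summed oligodendrocyte markers made up 169 to 751 CPM in NeuN+ wells and were 169 to 223 CPM after IFN-γ against 308 to 428 CPM after saline at 6 h, and 633 to 751 against 368 to 438 CPM at 72 h. Their part in the members' differences in NeuN+ wells was not tested.

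Il33 was called higher in NeuN+ wells at 6, 24 and 48 h. At 6 h its NeuN+ saline wells held 10.8, 17.7, 18.3 and 23.4 CPM and the IFN-γ wells 61.7 to 99.4 CPM, all higher (log2 fold change 1.99 ± 0.20, edgeR adjusted p = 7.33e-09). At 24 h they held 16.4 to 25.3 CPM and 52.1 to 88.6 CPM (1.66 ± 0.15, edgeR adjusted p = 1.16e-08). At 48 h the saline wells held 11.9, 12.3, 14.1 and 14.3 CPM and the IFN-γ wells 29.0 to 43.6 CPM, again all higher. The log2 fold change at 48 h was 1.27 ± 0.21 (edgeR adjusted p = 0.00141), and without saline replicate 6 this call was lost. At 72 h the groups overlapped (0.19, edgeR adjusted p = 0.598). Whether the difference between IFN-γ and saline itself differed between the fractions was not tested for Il33.

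Among the falling members, 3 were called lower in NeuN+ wells. 9330111N05Rik at 6 h was at 44.6, 48.0, 57.7 and 60.2 CPM after saline and at 18.5 to 26.1 CPM after IFN-γ, with no overlap (log2 fold change -1.18 ± 0.17, edgeR adjusted p = 7.64e-06). Ptgds at 6 h was at 12.9, 23.4, 50.5 and 50.5 CPM after saline and 4.74 to 20.1 CPM after IFN-γ, with overlap (-1.39 ± 0.33, edgeR adjusted p = 0.00551). RP24-163K4.1 at 24 h was at 11.9 to 17.6 CPM after saline and 1.84 to 11.04 CPM after IFN-γ, with no overlap (-1.01 ± 0.25, edgeR adjusted p = 0.00814). The Ptgds and RP24-163K4.1 calls were close to the limits: both were lost under DESeq2, and leaving out single wells ended them in 4 and 10 cases. A330015K06Rik at 24 h had IFN-γ wells at 15.6 to 31.7 CPM, all under the saline wells at 35.1 to 64.2 CPM, and an edgeR adjusted p of 0.000168, but its log2 fold change of -0.99 ± 0.17 was just short of a call.

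At 72 h the NeuN+ values of Abca8a were turned around. Its saline wells held 12.9, 12.9, 18.4 and 21.4 CPM and its IFN-γ wells 24.3 to 28.0 CPM, all higher, with a log2 fold change of 0.63 that was not called (edgeR adjusted p = 0.045). At 24 h all its IFN-γ wells, at 5.77 to 10.4 CPM, were under the saline wells at 11.3 to 17.2 CPM (-0.82, edgeR adjusted p = 0.0145). Ptgds at 72 h still had every IFN-γ well, at 6.99 to 13.3 CPM, under the saline wells at 15.5 to 33.1 CPM (-0.93, edgeR adjusted p = 0.0201). Apod was called at no time, with log2 fold changes of -0.02, 0.16, 1.13 and 0.12 over the 4 times and an edgeR adjusted p of 0.0777 at 48 h.

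The effect of IFN-γ in NeuN+ wells depended on time for 6 of the 8 members, by the edgeR test of treatment by time over the 42 wells (4.81% of 10953 genes passed). The edgeR adjusted p was 3.46e-05 for RP24-163K4.1, 6.58e-06 for Il33, 0.000111 for Abca8a, 0.000521 for 9330111N05Rik, 0.000555 for A330015K06Rik and 0.000896 for Gm42756. For Ptgds it was 0.891 and for Apod 0.229. Gm42756 passed the filter of the fits per time at 72 h only. Its IFN-γ NeuN+ wells held 9 UMIs of it in all at 6 h and 9 at 24 h, so its p rests on counts near the floor. Time is confounded with the mice, whose sex-linked genes differ between times. The oligodendrocyte markers tested in NeuN+ wells also turned around, with median log2 fold changes of -0.69, -0.44, 0.36 and 0.62 at 6, 24, 48 and 72 h. Their part in the members' dependence on time was not tested.

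**Figure D3:**
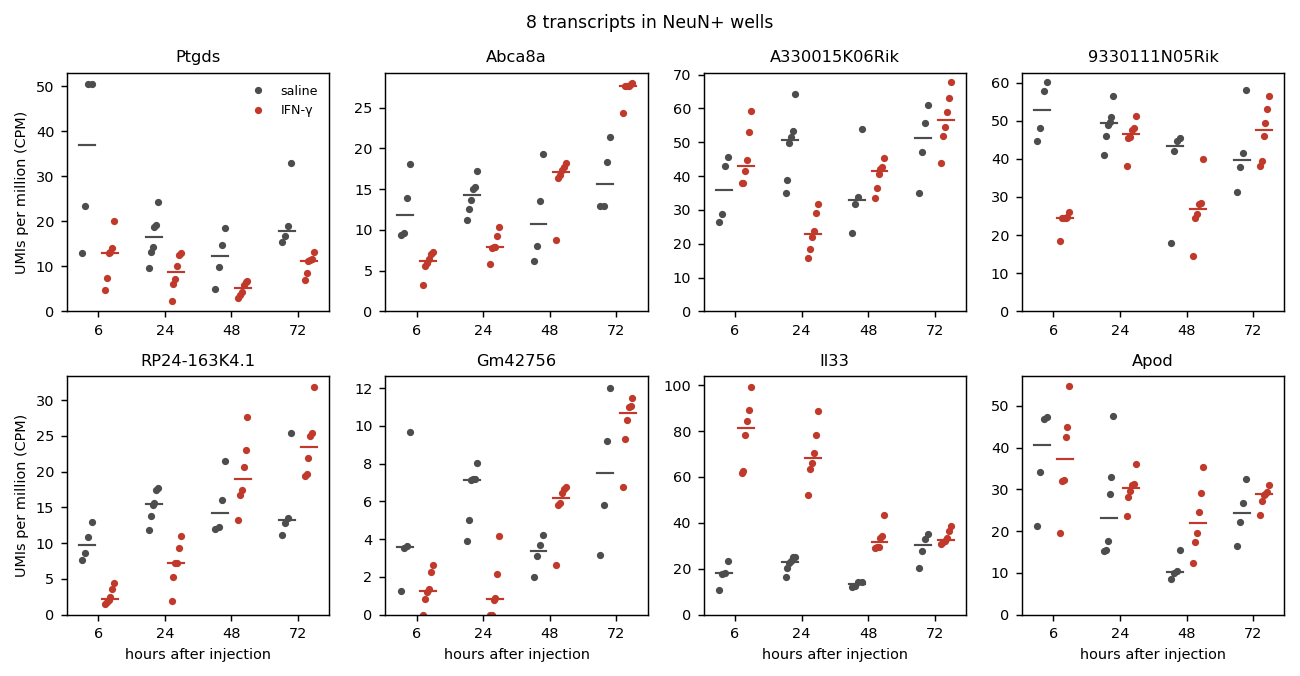
Level of each transcript in every NeuN+ well, in CPM (vertical axis, starting at 0) by hours after injection, with saline wells in grey, IFN-γ wells in red and a line at each group's median. The Il33 IFN-γ wells lie above all saline wells at 6, 24 and 48 h, and Abca8a changes from below saline at 6 and 24 h to above it at 72 h.

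Single nuclei at 48 h gave the members within oligodendrocyte-like clusters, which held 191 of 1016 saline nuclei (18.8%, exact 95% interval 16.4 to 21.3%), 744 of 2574 nuclei of the first IFN-γ library (28.9%) and 306 of 1109 of the second (27.6%). All 3 libraries had been enriched for NeuN+ nuclei by sorting, so these shares depend on the sort. Oligodendrocyte-like nuclei held 0.69 to 1.44 CPM of Xist and 175 to 203 CPM of the Y-linked Uty. The NeuN- wells at 48 h held at least 3360 CPM of Xist, so nuclei and wells at 48 h differ in sex-linked genes. Median UMIs per oligodendrocyte-like nucleus were 3383, 3445.5 and 4201.5. Because these values chose the members and saline is 1 library, they are given without a test, and the intervals cover counting error only.

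Ptgds was the member with the largest difference, at 4135 CPM in the saline library and at 2059 and 1748 CPM in the IFN-γ libraries (log2 ratios -1.01 and -1.24). 9330111N05Rik went from 1031 to 689.8 and 556 CPM, A330015K06Rik from 816 to 554 and 479 CPM, and Abca8a from 455 to 347 and 295 CPM. At full depth, these 4 were lower in both IFN-γ libraries with Poisson intervals apart from saline. RP24-163K4.1 (541 against 535 and 479 CPM) and Gm42756 (180 against 163 and 150 CPM) were lower with overlapping intervals. Il33 was at 497 CPM against 668 and 579 CPM, and Apod at 1947 CPM against 2016 and 2802 CPM. Genes that are not members were also lower there, with Mal at 1149 CPM in saline against 623 and 561 CPM. Opalin was at 204 CPM against 122 and 127 CPM. Of 24 myelin genes with at least 10 saline UMIs, 16 were lower in both IFN-γ libraries, with median log2 ratios of -0.20 and -0.15.

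The share of nuclei with at least 1 UMI moved differently from the level for Ptgds. It was 78.5% in saline and 80.9 and 76.1% in the IFN-γ libraries, while that of A330015K06Rik was 84.3% against 64.2 and 63.1%. Thinned to 1000 UMIs per nucleus, the Ptgds log2 ratios were -1.05 and -1.33. Those of 9330111N05Rik were -0.90 and -0.99 and those of A330015K06Rik -0.88 and -0.86, with intervals still apart from saline. Abca8a, at -0.18 and -0.33, then had intervals that overlapped saline in both libraries. In neurons, 6.00, 8.08 and 10.4% of nuclei held a Ptgds UMI at median depths of 18487, 15487 and 17847 UMIs. Whether these UMIs are free RNA from other cells was not tested. A330015K06Rik was found in 42.02 to 45.8% of neurons at 87.8 to 118 CPM and in 1 astrocyte-like nucleus of each library, and its reads cannot be told apart with certainty from those of Kcnab1. RP24-163K4.1 was found in at most 0.418% of neurons.

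The oligodendrocyte-like nuclei fell into 4 clusters that the libraries filled unequally. Cluster 17, led by Ptgds and Mal, held 111 saline nuclei and 25 and 5 IFN-γ nuclei, and its Ptgds level was 7419 CPM in saline and 5496 and 5743 CPM in the IFN-γ libraries. Clusters 20 and 21 held 5 and 0 saline nuclei, against 342 and 175 in the first IFN-γ library and 116 and 95 in the second, and cluster 21 was led by the IFN-γ-induced genes Iigp1, Tgtp2, Gbp2 and Irgm1. Ptgds was at 3079 and 2652 CPM in cluster 20 and 1952 and 2506 CPM in cluster 21. In cluster 14, filled by all libraries with 75, 202 and 90 nuclei, Ptgds was at 575, 438 and 105 CPM and Apod at 2907, 3369 and 4279 CPM.

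**Figure D4:**
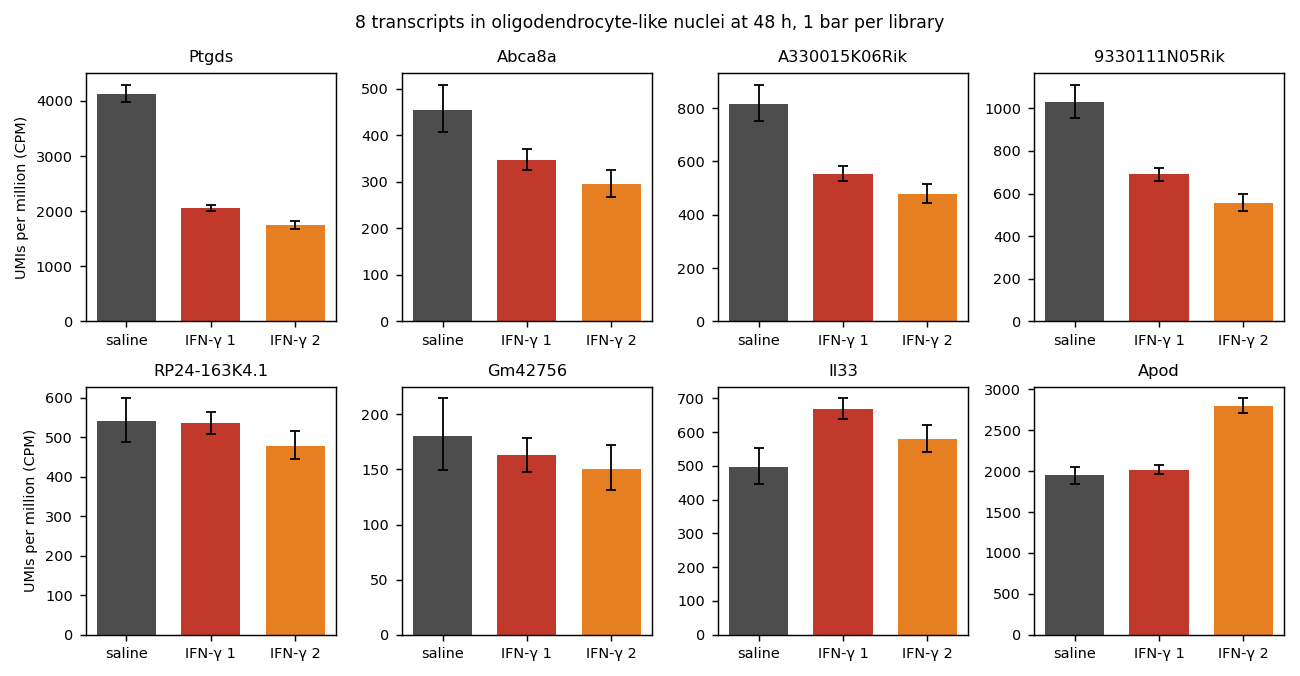
Summed level of each transcript in oligodendrocyte-like nuclei of the 3 libraries at 48 h, in CPM (vertical axis, starting at 0), with exact 95% Poisson intervals that cover counting error only. Ptgds stands at 4135 CPM in the saline bar and at 2059 and 1748 CPM in the IFN-γ bars, and RP24-163K4.1 and Gm42756 have overlapping intervals.

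The nuclei of other classes were not used in the choice of members. Clusters left without a name, with 221, 531 and 287 nuclei per library, were not tested. They included a cluster of 134 nuclei with microglia markers and clusters with neuron markers, so the neurons tested are not all neurons. In astrocyte-like nuclei (21, 135 and 37 per library) 3 members had enough UMIs, and none was called by edgeR or had an unadjusted p under 0.05 (0.169% of 9482 genes were called). Il33 was at 64.1, 85.0 and 55.9 CPM there (log2 fold change 0.26, edgeR adjusted p = 0.963). In neurons 6 members were tested with edgeR and none was called (0.0145% of 20743 genes were), with adjusted p of 0.999 each and an unadjusted p under 0.05 for Abca8a (1.64) and Apod (1.22). With 1 saline library this test has 1 residual degree of freedom, and it does not show that the members were unchanged.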

How the data were processed

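Nuclei of mouse ventral midbrain were measured in 84 wells and 3 single-nucleus libraries. The authors deposited raw UMI counts per gene for both, made per the labels and methods by trimming poly(A), aligning with STAR to GRCm38 with Gencode vM10 annotation and collapsing reads of 1 UMI and gene to 1 count. For the single nuclei the authors removed low-quality nuclei and doublets before deposit, leaving 4699 nuclei, so no doublet caller was run here. The labels call every well NeuN+, so the fraction of each well came from the study's sample sheet, by barcode. Wells are named by group and a number that only tells them apart. The members and gene lists were chosen with earlier results of these data known.

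Wells of 1 fraction and time were compared with edgeR 4.0.16 in R 4.3.3 (filterByExpr, TMM factors, quasi-likelihood F test, Benjamini-Hochberg adjustment over all genes tested), with genes called at an adjusted p under 0.01 and a log2 fold change past 1 in either direction. Fractions were compared over saline wells with time as a term. Fold changes carry their SE and come from the fit, and levels are CPM on total UMIs. Alternatives were RLE factors, DESeq2 1.42.0, no filter, saline wells of all times, 1 fit per fraction and each well left out. The saline wells under 500 CPM of Xist, member UMIs per 1000 marker UMIs and the treatment by time test were added after the data were seen. NeuN- wells held a median of 110247.5 UMIs, and intervals and limits from a count of 0 (3 UMIs) cover counting error only.

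Nuclei were clustered with scanpy 1.11.5 (2000 variable genes without the members, 30 components, 15 neighbours, Leiden resolution 1, with 0.5 and 2 as alternatives) and named from at least 3 markers found in 5% of a cluster's nuclei. A non-neuronal name was dropped where at least 3 neuron markers were found in 50% of nuclei, a rule set after the clusters were seen. Clusters also stayed unnamed where another list had more markers among the 10 leading genes. The same held for clusters with few UMIs for their libraries and no marker of their list among those genes. No barcode was shared between libraries. UMIs were summed per library and class, and genes with at least 10 UMIs were tested.

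Named genes are the members, up to 4 called genes with the largest fold change per list at the time with most calls, the 5 genes most like the members (a floor of 50 CPM was added after the data were seen), genes within 50 kb, sex-linked genes and markers. Of the genes that this rule picks, 1 is not reported here. Where the text names other genes, they lead a cluster. Scripts were tested on simulated data with 200 changed genes.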

Additional observations from a re-analysis of the deposited data

Results flagged for a closer look

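In 128 groups of wells, 9 had 1 well far from the rest by Dixon's test, which flags about 1 group in 20 by chance. In NeuN- IFN-γ wells these were A330015K06Rik at 48 h in replicate 4, at 327.9 CPM against 258.9 to 267.7 in the others, A330015K06Rik at 72 h in replicate 2, at 612.4 CPM against 357 to 451.3, and Apod at 24 h in replicate 3, at 482.2 CPM against 222.4 to 309.2. In NeuN+ IFN-γ wells they were Abca8a at 48 h in replicate 7, at 8.719 CPM against 16.3 to 18.2, Abca8a at 72 h in replicate 7, at 24.35 CPM against 27.6 to 28.0, and 9330111N05Rik at 6 h in replicate 12, at 18.53 CPM against 24.4 to 26.1. Gm42756 at 48 h in replicate 9, at 2.637 CPM against 5.81 to 6.75, and Il33 at 48 h in replicate 7, at 43.6 CPM against 29.0 to 34.4, were the others there. In NeuN+ saline wells, 9330111N05Rik at 48 h in replicate 5 stood at 17.92 CPM against 42.1 to 45.5.

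Apod in NeuN- wells moved in opposite directions at 2 times, with every IFN-γ well above saline at 6 h (log2 fold change 0.7608) and every IFN-γ well below saline at 72 h (-0.6673), and the difference between the times was not tested. In NeuN+ wells the effect of IFN-γ differed between times for 6 members, with edgeR adjusted p for treatment by time of 0.000111083 for Abca8a, 0.000555456 for A330015K06Rik, 0.000520983 for 9330111N05Rik, 3.45781e-05 for RP24-163K4.1, 0.000896305 for Gm42756 and 6.57701e-06 for Il33. The oligodendrocyte markers also turned around over time in these wells, and their part was not tested. Gm42756 was counted near the floor in the IFN-γ wells at 6 and 24 h.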

How the results depend on the processing

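No paired analysis was possible because the labels give the wells no replicate numbers that groups share. In NeuN- wells, 487 of 494 member values under the alternatives kept their side of the limits, 6 no longer passed (all Abca8a at 6 h) and 1 newly passed (Apod at 6 h, higher, with saline wells of all times). The sign changed for 10 of the NeuN- values, none of them called. With each well left out, members called lower numbered 4 to 5 at 6 h, 5 to 6 at 24 h, 3 to 3 at 48 h and 1 to 1 at 72 h. The 5 at 24 h came without saline replicate 2 or 9, when Gm42756 fell under the filter. Calls among the gene lists were 19 to 23, and all 320 values of NeuN- over NeuN+ held, with 8 to 8 members called.

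In NeuN+ wells the 6 calls became 11 with no filter and 5 to 7 with wells left out, and the cause was not tested. Saline wells of all times ended the calls of Ptgds and 9330111N05Rik at 6 h, RP24-163K4.1 at 24 h and Il33 at 48 h. Of 403 NeuN+ values, 19 changed sign, none of them called. With saline wells of all times, A330015K06Rik stood at -0.00151 at 6 h and -0.184 at 48 h, and Apod at 0.565 at 6 h and -0.101 at 48 h. With no filter, Apod stood at 0.0188 at 6 h. With wells left out, 9330111N05Rik ran from -0.113 to 0.0103 at 24 h and from -0.0391 to 0.228 at 72 h, A330015K06Rik from -0.0333 to 0.401 at 48 h, and Apod from -0.256 to 0.205 at 6 h and from -0.0437 to 0.309 at 72 h. The causes of these sign changes were not tested. The shallowest NeuN- well, with 20962 UMIs, allows up to 143 CPM at a count of 0, and wells of 1 mouse may be counted as separate samples. In oligodendrocyte-like nuclei the other clusterings gave the same 1241 nuclei.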
